A study of Mus musculus with 6 samples.

Results

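The CCN family was examined in RNA of femurs from male C57BL/6 mice of wild-type genotype, 12 weeks old when the bone was taken. Its 6 genes, Ccn1 to Ccn6, were taken by symbol from the 55484 genes of the tables, each matched 1 row, and 5 of the 6 entered the authors' test. Both groups carried the title label ND, for a normal chow diet, and were housed singly for 6 weeks from the age of 6 weeks. The 3 sedentary mice had no running wheel, and the 3 wheel running mice had a wheel they could use at will. Each group is given as 1 pooled value per gene, so no value of a single mouse is known and the spread between mice cannot be shown. The handling of marrow, muscle and periosteum is not stated in the labels. The bone matrix genes Sparc and Bglap were abundant, as the tissue label asks. Neutrophil genes such as S100a9 and S100a8 ranked among the most abundant and skeletal muscle genes were present, so the RNA was not that of bone cells alone.

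CCN proteins are secreted, cysteine-rich matricellular proteins: they sit in the extracellular matrix and signal rather than bear load. After a signal peptide they carry an insulin-like growth factor binding protein module, a von Willebrand factor C module, a thrombospondin type 1 module and, in all but CCN5, a C-terminal cystine knot. They bind integrins, heparan sulphate proteoglycans and growth factors. Ccn1 and Ccn2 are classical immediate targets of mechanical strain, of the coactivators YAP and TAZ with their TEAD partners, and of serum response factor, and Ccn4 is known as a gene induced by Wnt signalling. The study names CCN1 in its title, in the context of osteocytes and mechanical loading.

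The level of each gene was given as FPKM, a fragment count divided by transcript length and library depth, which can be compared between genes because it is per length. Beside it stand the lower and upper bound of the authors' interval, whose level is not stated. In sedentary mice Ccn1 stood at 81.3 FPKM (66.2 to 96.4), Ccn2 at 80.1 (61.8 to 98.4), Ccn4 at 30.4 (24.5 to 36.4), Ccn5 at 18.5 (14.1 to 22.9), Ccn3 at 1.51 (0.912 to 2.12) and Ccn6 at 0.227 (0 to 0.700). The order was the same in running mice. Ccn1 and Ccn2 could not be told apart, since their intervals overlapped in both groups, and every other neighbouring pair in the order had separate intervals in both groups. Ccn1 exceeded 92.9% of the tested genes in sedentary and 95.6% in running mice, whereas Ccn3 exceeded 14.4% and 18.2%. The family thus spanned abundant and near-absent transcripts in the same bone.

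**Figure D1:**
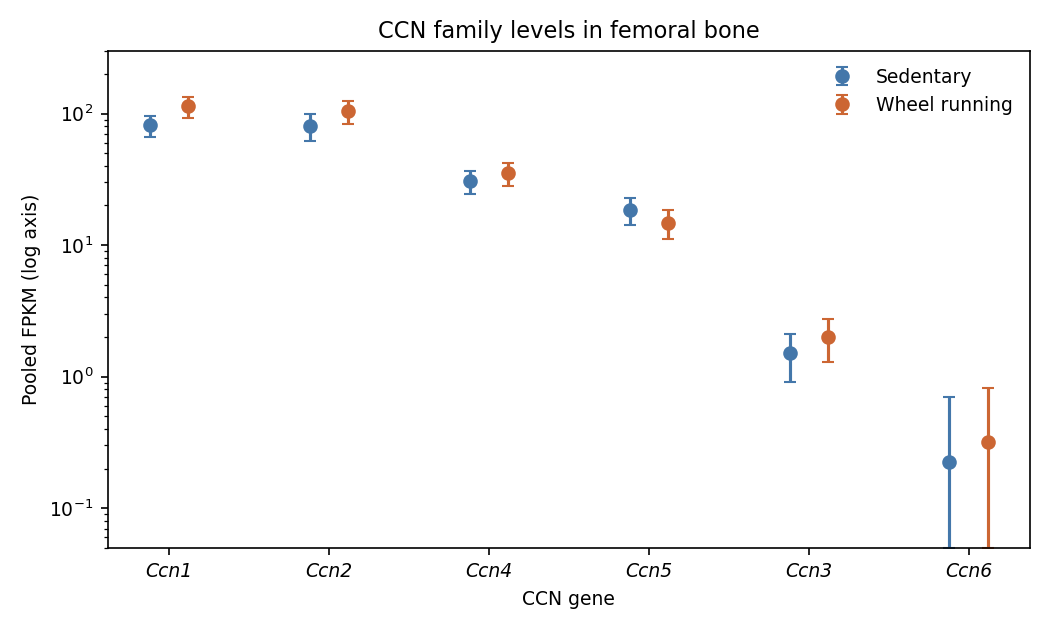
Pooled FPKM of the 6 CCN genes (log axis) in sedentary and wheel running mice, 1 point per group of 3 libraries, with the authors' interval as the bar; the lower bounds of Ccn6 are 0 and run off the axis. Ccn1 and Ccn2 share the top level, and the intervals of the groups overlap for every gene.

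Counting noise was small for the abundant members. The size of a single fragment in the lowest FPKM values gave effective depths of 14300000 to 16500000 fragments per sedentary library and of 13800000 to 17400000 per running library, an estimate that takes a group value as the mean of 3 scaled libraries. At that depth, and at the length of the principal transcript, the 3 libraries of a group together held about 6500 fragments of Ccn1 in sedentary and 9600 in running mice, a counting error of 1.24% and 1.02%. The authors' upper bound lay 18.5% and 18.2% above the FPKM. For Ccn6 the estimate was about 12 fragments in sedentary and 18 in running mice, with a counting error of 29.0% and 23.7%. For Ccn2, Ccn4 and Ccn5, which have several annotated transcripts, the fragment numbers are rougher.

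Ccn1 was the only member that passed the test, and it was higher in running mice. Ccn1 (ENSMUSG00000028195) lies on chromosome 3 from 145646976 to 145649981 on the minus strand (GRCm38), and its product binds integrins on osteoblasts, endothelial cells and fibroblasts. Its pooled level was 81.3 FPKM in sedentary and 114 FPKM in running mice, a difference of 32.4 FPKM and a 1.40-fold ratio. On the log2(FPKM + 0.1) scale used below for all differences, wheel running over sedentary, this was 0.48. In the authors' deposited table p was 5e-05 and q was 0.00718, and a gene is called here when that q is under 0.05. This p was the smallest given there, and 108 tested genes, Ccn1 included, shared it, so it does not rank Ccn1 among them. The intervals shared 3.41 FPKM, from the running lower bound of 93.0 to the sedentary upper bound of 96.4, and the ratio of opposite bounds ran from 0.965 to 2.03. In bulk RNA more cells of a type and more transcript per cell cannot be told apart.

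Of the 5 tested members, 1 was called, against 0.941% of the 15508 tested genes. The call was higher in running mice, as were 0.445% of tested genes, and no member was among the 0.497% called lower. At an unadjusted p under 0.05 in the authors' deposited table, the members were Ccn1, Ccn2 and Ccn5, 3 of 5 against 5.65% of tested genes. Other matricellular genes, read below, had 9 of 18 tested under that p, and CCN receptors and surface partners had 1 of 21. The family was proposed with these results in view, so its counts are a description. The median log2 fold of the 5 tested members was 0.37, and 4 of the 5 were positive. Over all tested genes the median was -0.01, and 48.2% were positive.

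A stretch of the Ccn1 promoter is shown because Ccn1 was the called member and has a TEAD letter motif close to its start. It is the RefSeq sequence of GRCm38.p6, 250 bases upstream of the RefSeq start at chr3:145649986-145650235, read on the minus strand from 5′ to 3′, with a TEAD motif and a TATA motif in capitals.
Ccn1: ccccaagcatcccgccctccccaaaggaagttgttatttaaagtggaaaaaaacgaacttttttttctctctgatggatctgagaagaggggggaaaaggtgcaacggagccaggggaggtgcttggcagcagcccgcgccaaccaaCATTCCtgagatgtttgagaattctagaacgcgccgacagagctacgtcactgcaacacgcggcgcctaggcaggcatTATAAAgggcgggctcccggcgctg
Motifs were searched on both strands in 300 bases, the 250 printed and the 50 that follow. The TEAD motif GGAATG was found on the opposite strand, at -103 to -98 from the start, and 14.7% of the 32851 promoters in the table hold it. The SMAD motif CAGAC lay at 4 to 8 after the start (49.6% of promoters), and neither the AP-1 motif TGANTCA (7.81%) nor the CArG box bound by serum response factor (1.63%) was in the window. The TATA motif TATAAA at -25 to -20 (13.6%) and the CRE core TGACG, on the opposite strand at -58 to -54 (20.8%), were looked for after the sequence had been read. These are letter matches and not measured binding sites. Of the other members only Ccn6 had an entry. Its window held CAGAC and TGACG but no GGAATG.

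Next to Ccn1 lies a long noncoding gene, Gm17501, annotated as a lincRNA on the plus strand, 331 bases away by coordinate. The genes are transcribed away from each other. Gm17501 stood at 2.57 FPKM (1.08 to 4.05) in sedentary and 4.01 FPKM (2.14 to 5.88) in running mice, a log2 fold of 0.62. It was not called (p = 0.0376 and q = 0.798 in the authors' deposited table), and its intervals overlapped. On the other side the nearest tested gene, Znhit6, stood at 11.3 and 10.3 FPKM, 42181 bases away.

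Ccn2 was as abundant as Ccn1 and had the same direction, but did not pass. Ccn2, long known as connective tissue growth factor, is a profibrotic effector of transforming growth factor beta and lies on chromosome 10 from 24595442 to 24598683 on the plus strand. Its level was 80.1 FPKM in sedentary and 104 FPKM (82.7 to 125) in running mice, with 23.6 FPKM and 0.37 on the log2 scale between the groups. The p of Ccn2 in the authors' deposited table was 0.0009, at place 171 among the tested genes, and q was 0.0798. The intervals shared 15.8 FPKM, and the ratio of opposite bounds ran from 0.840 to 2.02. Ccn1 over Ccn2 was 1.01 in sedentary and 1.096 in running mice, and a difference between the changes of the pair was not tested. A processed transcript on the minus strand, Gm15270, overlaps Ccn2 and stood at 8.71 and 9.55 FPKM, with lower bounds of 0. The libraries were directional, but whether the authors' assignment of fragments to the pair used the strand was not stated.

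Ccn4 and Ccn3, which lie on chromosome 15, had positive folds that did not pass the test. Ccn4, formerly Wisp1, promotes osteoblast differentiation and spans 66891320 to 66923201 on the plus strand. It stood at 30.4 FPKM (24.5 to 36.4) and 35.1 FPKM (28.1 to 42.05) in sedentary and running mice, a log2 fold of 0.20 with p = 0.066 and q = 0.955 in the authors' deposited table. Ccn3, formerly Nov, is known as an antagonist of bone morphogenetic protein signalling and spans 54745702 to 54754039 on the plus strand. It stood at 1.51 FPKM (0.912 to 2.12) and 2.01 FPKM (1.29 to 2.74), a log2 fold of 0.39 with p = 0.06595 and q = 0.955 in the authors' deposited table. Both pairs of intervals overlapped widely. The fold of Ccn3 was close to that of Ccn2, but its upper bounds lay 39.7% and 36.0% above the FPKM, against 22.8% and 20.3% for Ccn2.

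Ccn6 was close to the limit of detection. The gene, formerly Wisp3 and linked in humans to a childhood skeletal dysplasia, lies on chromosome 10 from 39150970 to 39163794 on the minus strand and overlaps Tube1 on the plus strand. Its level was 0.227 FPKM (0 to 0.700) in sedentary and 0.319 FPKM (0 to 0.819) in running mice, and the authors did not test it. Tube1, which encodes a tubulin, was far above it at 4.16 and 4.401 FPKM. The lower bound of Ccn6 was 0 in both groups and its intervals overlapped, so whether its level differed is not known.

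Ccn5 was the only member with a negative fold. Ccn5, formerly Wisp2, restrains growth and fibrosis in several tissues and lies on chromosome 2 from 163820861 to 163833146 on the plus strand. It stood at 18.5 FPKM (14.1 to 22.9) in sedentary and 14.8 FPKM (11.2 to 18.4) in running mice, a difference of -3.71 FPKM and of -0.32 on the log2 scale. The p of Ccn5 in the authors' deposited table was 0.0219 and q was 0.649, so the gene was not called. The intervals shared 4.27 FPKM, and the ratio of opposite bounds ran from 0.489 to 1.30. Ccn4 over Ccn5 was 1.65 in sedentary and 2.37 in running mice.

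The summed FPKM of the 6 genes was 212 in sedentary and 270 in running mice, a 1.27-fold ratio, and 1.19-fold without Ccn1. Ccn1 and Ccn2 together accounted for 56.0 of the 57.5 FPKM between the groups. The share of Ccn1 in the sum was 38.3% in sedentary and 42.2% in running mice, and with Ccn1 at its interval bounds and the other genes held at their FPKM it ran from 33.6% to 42.4% and from 37.4% to 46.3%. Ccn2 held 37.8% and 38.5%, Ccn4 14.3% and 13.0%, and Ccn5 8.72% and 5.49%. Ccn3 and Ccn6 held less than 1% in each group. The ranges of Ccn1 overlapped between the groups. Those of Ccn5, set in the same way, were 6.80% to 10.6% in sedentary and 4.21% to 6.73% in running mice, and did not meet. These ranges leave out the intervals of Ccn1 and Ccn2, so they are too narrow. Whether the share of Ccn5 differed between the groups is not known. The shares sum to a fixed total, so that of Ccn5 depends on the levels of Ccn1 and Ccn2 as well, and the FPKM intervals of Ccn5 itself overlapped.

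**Figure D2:**
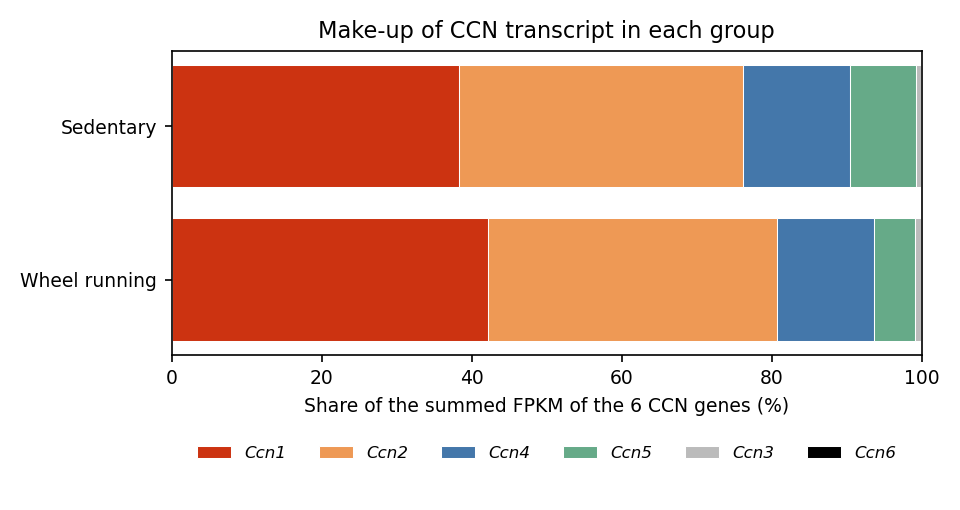
Share of each CCN gene in the summed FPKM of the family (%), from the pooled value of each group. Ccn1 and Ccn2 fill most of both bars, and Ccn5 takes 8.72% of the sedentary and 5.49% of the running bar.

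A fold of this size was uncommon at the level of Ccn1. Within 1.5-fold of its mean FPKM there were 881 tested genes, of which 16 were called, and their log2 folds ran from -0.17 at the tenth percentile to 0.11 at the ninetieth. The fold of Ccn1 was larger than that of 99.4% of them, and 4 genes had a larger one. The fold of Ccn2 was larger than 98.3% of the 961 genes at its level, that of Ccn4 than 94.5% of 2631 and that of Ccn3 than 85.2% of 1812. The fold of Ccn5 was larger than 2.61% of the 3378 genes at its level. These percentiles describe pooled values only.

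**Figure D3:**
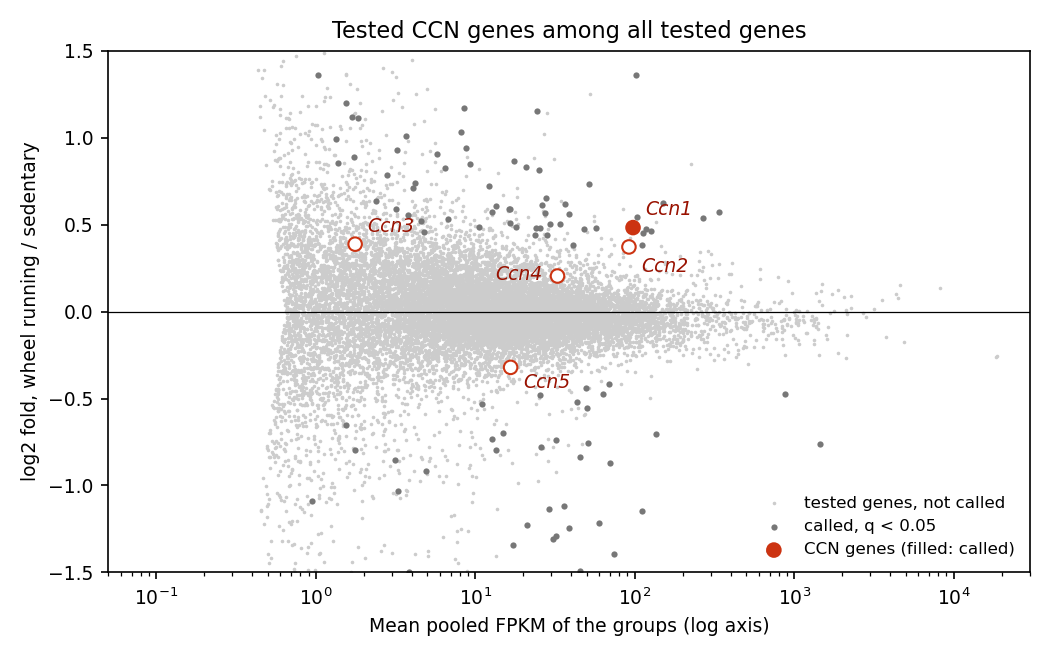
Log2 fold of wheel running over sedentary against the mean pooled FPKM (log axis) for all tested genes, with called genes in dark grey and the 5 tested CCN genes ringed in red, filled where called. The axis ends at 1.5 in each direction and leaves out 162 tested genes beyond it. Ccn1 at 0.48 and Ccn2 at 0.37 lie in the upper tail of genes at their level, and Ccn5 at -0.32 lies in the lower tail.

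Genes like a member were sought by level and fold, each scaled to its SD over tested genes, with 2 group values per gene. Closest to Ccn1 were Cryab, a small heat shock protein rich in muscle (76.8 and 106 FPKM, log2 fold 0.46), Tcap, a sarcomere protein (94.95 and 129.9 FPKM, 0.45), and Mepe, an osteocyte matrix protein (98.4 and 137 FPKM, 0.48). Tcap and Mepe were called and Cryab was not (q = 0.0517 in the authors' deposited table). Closest to Ccn2 were Stag2, a cohesin subunit, the binding protein gene Igfbp5 and Gas6, a ligand of the AXL receptor, of which only Gas6 was called. Stag2 had nearly the values of Ccn2, 80.7 and 105 FPKM, but its intervals reached from 0 to 178 and from 4.41 to 205 FPKM, and its q was 0.9997. Closest to Ccn3 were Scrn1, Bhlhe41 and Zcchc18, to Ccn4 Pgam2, Crip2 and Tns3, and to Ccn5 Oasl2, Pax5 and Troap, and none of these 9 was called. Among the 1974 tested genes with a sedentary level within 2-fold of that of Ccn1, 8 others were called higher. The nearest in fold were Sost, which encodes sclerostin (47.4 and 66.2 FPKM, 0.48), Mepe and the glucocorticoid-induced Tsc22d3 (106 and 147 FPKM, 0.46).

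The size of the test statistic ordered the tested members as p did. In the authors' deposited table the statistic was 2.58 for Ccn1, 1.69 for Ccn2, -1.32 for Ccn5, 1.06 for Ccn3 and 1.02 for Ccn4. Of the 24 tested genes whose statistic was within 0.1 of that of Ccn1 in size, Ccn1 included, 19 were called, and their p ran from 5e-05, the median and the p of Ccn1, to 0.387. Of the 84 genes near Ccn2, 3 were called. Genes with nearly the same statistic thus had very different p in that table, and the labels do not say how p was obtained. Read as normal scores, the statistics of Ccn1 and Ccn2 would give larger p than those deposited. The call of Ccn1 therefore rests on the authors' p and q as given. Of the 69 genes called higher, 19 had separate intervals, and Ccn1 was not among them.

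Genes that act with the CCN proteins are read against all tested genes, of which 0.941% were called, 5.65% had p under 0.05 in the authors' deposited table and 48.2% were positive. With lists of this size a count of 0 calls is near that background. Of 24 receptors and surface partners, such as integrins, syndecans and LRP coreceptors, 21 were tested, none was called and 1 had p under 0.05 in the authors' deposited table. Their median log2 fold was 0.10. Itgb1, the shared beta subunit of many CCN receptors, stood at 131 and 138 FPKM, and the leukocyte integrin genes Itgb2 and Itgam at 157 and 142 and at 110.2 and 92.2 FPKM. Of 20 soluble and matrix partners all were tested, none was called and 7 had p under 0.05 in that table, with a median of 0.20. The proteoglycan genes Dcn (371 and 431 FPKM) and Bgn (359 and 417 FPKM) and the fibronectin gene Fn1 (134 and 142 FPKM) were the most abundant of them.

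Of 29 Hippo pathway genes, which lie upstream of Ccn1 and Ccn2, 25 were tested, 17 were positive and the median was 0.04. None was called and 2 had p under 0.05 in the authors' deposited table, both near the background of 0.941% and 5.65%. The kinase cofactor gene Mob1a stood at 69.9 and 63.7 FPKM, the kinase genes Map4k4 at 56.3 and 53.8 and Stk4 at 52.5 and 48.8. The coactivator genes were read after the values had been seen: Yap1 stood at 7.20 and 8.62 FPKM, Wwtr1, which encodes TAZ, at 7.81 and 8.38, and Tead1 at 2.73 and 3.57. The kinase gene Lats1 is listed at 0 in both groups and was not tested. Whether that 0 means a lack of transcript is not known. Transcript levels do not show the activity of this pathway, which is set by phosphorylation.

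Of 20 genes of a YAP and TAZ target signature, left after removing Ccn1 and Ccn2, 19 were tested and 2 rose, against 0.445% of all tested genes, with 16 positive and a median of 0.19. Ankrd1, a stress-induced nuclear and sarcomeric protein, rose from 0.899 (0.341 to 1.46) to 2.19 FPKM (1.20 to 3.19). Igfbp3 rose from 13.6 (10.5 to 16.6) to 19.3 FPKM (15.3 to 23.4). The intervals of the groups overlapped for both genes. Axl (52.7 and 60.2 FPKM), Gadd45a (53.2 and 51.1) and Asap1 (38.5 and 41.5) were the most abundant uncalled genes. Of 24 tested factors and targets of serum response factor none was called against 0.941% of all tested genes, 2 had p under 0.05 in the authors' deposited table against 5.65%, 10 were positive and the median was -0.04, which turned to 0.0071 after both groups were set to an equal summed FPKM. Its most abundant genes were Actb (1647 and 1500 FPKM), Actg1 (519 and 462) and Tpm1 (441 and 489). Differences between these lists were not tested.

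Of 16 Wnt pathway genes, the pathway known to induce Ccn4, 14 were tested and 1 rose, the antagonist Sost, against 0.445% of all tested genes, with a median of 0.22. Ctnnb1, which encodes beta-catenin, stood at 225 and 242 FPKM, Tcf7 at 6.73 and 7.72 and Dkk1 at 6.41 and 7.27. Of 15 genes of transforming growth factor beta signalling, the best known inducer of Ccn2, none was called, 6 had p under 0.05 in the authors' deposited table against 5.65% of all tested genes, 12 were positive and the median was 0.19. Tgfb1, the ligand gene with the highest level, stood at 98.7 and 97.8 FPKM, Tgfbr2 at 31.1 and 33.6 and Ltbp3 at 25.8 and 31.1.

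Igfbp genes and others share the first module of the CCN proteins. Of 14 such genes 12 were tested, 11 were positive and the median was 0.26, and 2 rose against 0.445% of all tested genes, Igfbp3 as above and Igfbp6, from 9.13 to 15.1 FPKM. Igfbp4 (279 and 291 FPKM), Igfbp7 (116 and 133) and Igfbp5 (74.8 and 94.3) were more abundant and not called. Among 20 other matricellular genes 18 were tested, 16 were positive against 48.2% of all tested genes and the median was 0.28. Thbs4 (12.4 to 22.6 FPKM), Tnxb (1.13 to 2.55) and Spock2 (0.949 to 1.80) rose, 3 genes against 0.445% of all tested genes called higher. The intervals of Spock2 overlapped between the groups. Sparc (3475 and 3642), Spp1 (1416 and 1578) and Thbs1 (126 and 107) were not called. The CCN median was 0.37, and differences between the medians were not tested. With a pseudocount of 1 it was 0.26, beside 0.25 for the other matricellular genes and 0.25 for the IGF binding module genes.

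**Figure D4:**
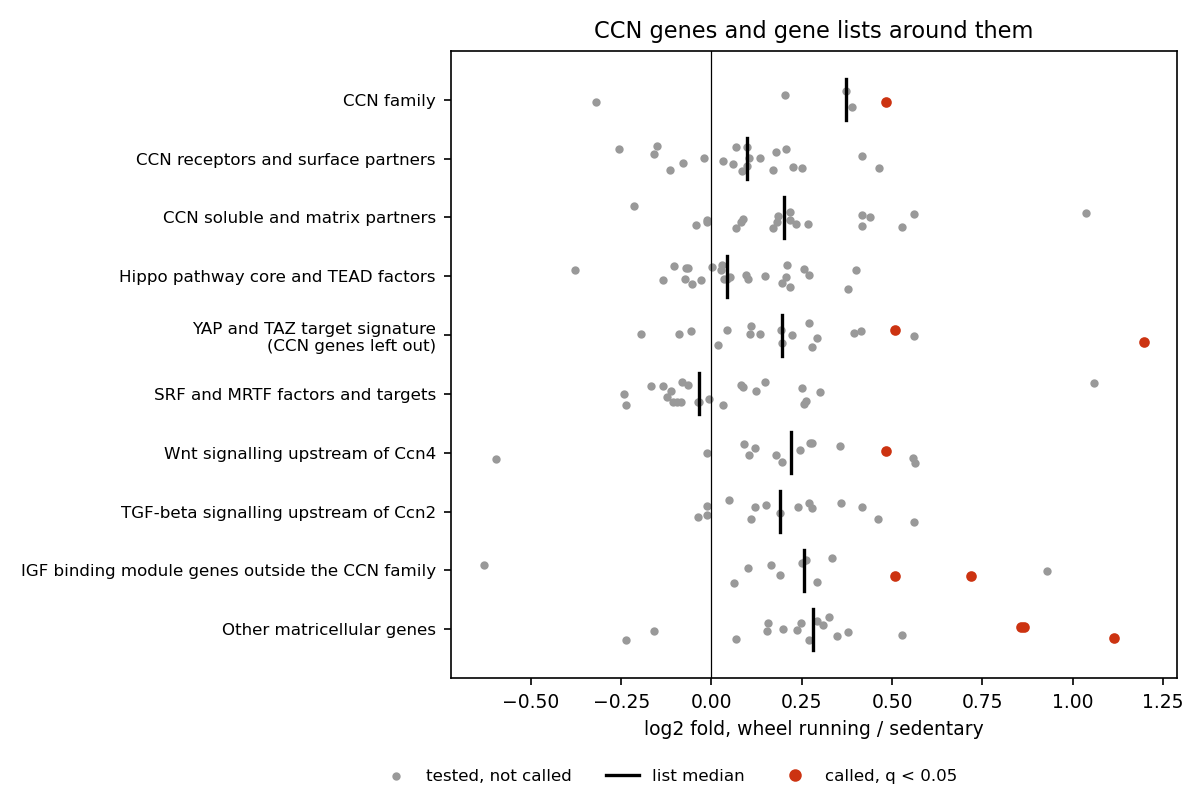
Log2 fold of wheel running over sedentary for each tested gene of the CCN family and of 9 lists around it, with called genes in red and the list median as a black bar. The median is 0.37 for the CCN family (0.26 with a pseudocount of 1) and -0.04 for factors and targets of serum response factor, which turned to 0.0071 at an equal summed FPKM.

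Markers of several cell types that can express CCN genes are given beside these values. Over all tested genes 0.445% were called higher and 0.497% lower, 5.65% had p under 0.05 in the authors' deposited table and 48.2% were positive, so a list of this size with no call is near the background. Of 10 osteocyte markers 9 were tested, 8 were positive, Sost and Mepe rose and Fgf23 fell, and their summed level was 352 FPKM in sedentary and 443 FPKM in running mice. Pdpn is listed at 0 and was not tested, with the same limit as for Lats1. All 13 tested osteoblast markers were positive and none was called (3 with p under 0.05 in the authors' deposited table), with a sum of 7158 and 7589 FPKM that leaves out Col1a1 and Col1a2, which have no estimate. All 18 skeletal muscle markers were positive and Myh1, Myh2, Tcap and Ryr1 rose (2423 and 2888 FPKM), all 10 tested adipocyte markers were positive and Adipoq, Fabp4 and Cfd rose (370 and 524 FPKM, median log2 fold 0.56), and 13 of 15 tendon and fibroblast markers were positive and Fmod, Thbs4 and Tnxb rose (745 and 879 FPKM). All 12 marrow stroma markers were positive and Lepr and Adipoq rose (1210 and 1413 FPKM). Endothelial markers were positive in 12 of 15 with none called and 3 with p under 0.05 (273 and 292 FPKM), and smooth muscle and pericyte markers in 12 of 15 with none called and 3 with p under 0.05 (175 and 197 FPKM). Chondrocyte markers were positive in 7 of 15 with none called and 1 with p under 0.05 (623 and 630 FPKM). No neutrophil marker of 15 was positive, none was called and 2 had p under 0.05 (55356 and 47238 FPKM), and 1 of 15 plasma and B cell markers was positive while Ighm, Igkc and Jchain fell (3512 and 2028 FPKM). In the authors' deposited table p was also under 0.05 for 7 osteocyte, 8 skeletal muscle and 4 adipocyte markers. It was so for 6 tendon and fibroblast, 6 marrow stroma and 5 plasma and B cell markers. No marker of these lists other than Pdpn is at 0 in both groups. Adipoq is counted here in both the adipocyte and the marrow stroma list. Sost, Thbs4 and Tnxb were also counted in the pathway lists above. The part of these cell types in the CCN differences was not tested.

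The structure of the genes sets Ccn5 apart in the same way as its known protein. The principal transcripts of all 6 genes have 5 exons, but in Ccn5 the first is noncoding and 4 carry coding bases. The fourth coding exon held 218 coding bases in Ccn5 and ends its reading frame, against 212 to 215 bases in Ccn1, Ccn2 and Ccn3 and 194 in Ccn4 and Ccn6, whose frames go on in another exon. The encoded proteins had 379 residues for Ccn1, 348 for Ccn2, 354 for Ccn3, 367 for Ccn4, 251 for Ccn5 and 354 for Ccn6. Aligned with Ccn5, the last 92 residues of Ccn1, with 9 cysteines, and the last 94 of Ccn2, with 10, had no partner, which is the place of the C-terminal cystine knot. Ccn1 had 38 cysteines and Ccn5 had 29. All 38 cysteines of Ccn1 were aligned with a cysteine of Ccn2.

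Among the 15 pairs of proteins, identity over aligned residues was highest between Ccn1 and Ccn2 (52.6%), the pair with the highest levels and with the lowest p of the family in the authors' deposited table. It was 52.2% between Ccn2 and Ccn3 and lowest between Ccn5 and Ccn6 (39.3%). Ccn1 and Ccn2 are also the compact genes of the family, spanning 3006 and 3242 bases, while the others span 8338 to 31882. With 6 genes these are descriptions and no relation was tested.

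**Figure D5:**
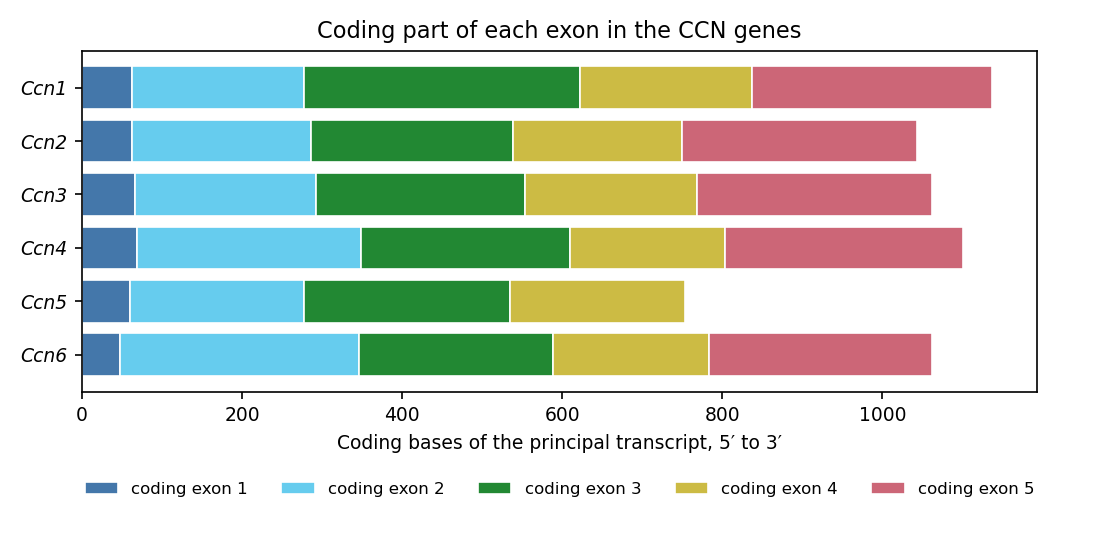
Coding bases in each coding exon of the principal transcript of the 6 CCN genes, from 5′ to 3′. Ccn5 ends after 4 coding exons, and the other 5 genes add another of 279 to 300 coding bases.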

How the data were processed

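Directional libraries were made from polyadenylated RNA of 6 mice, per the labels' protocols. Cufflinks 2.2.1, HISAT2 2.2.1, Trimmomatic 0.39 and SAMtools 1.10 are listed in the submitters' processing notes, with the build GRCm38 and without roles or settings. The authors deposited 1 pooled FPKM per group and gene, and interval bounds on the same scale. The deposited comparison gives for each gene its log2 fold, its p-value and q-value, and a test statistic used as a score, in columns of the kind Cuffdiff writes, per the file headers. There were 0 columns of single libraries, so mice could not be compared and the authors' q-value under 0.05, the planned fallback, was the call.

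All folds are log2(FPKM + 0.1) differences, from Python 3.11.15, pandas 2.3.3 and numpy 2.4.6. The code was tested on simulated data. Genes were placed with GENCODE vM21 (55138 of 55484 IDs matched). Proteins were translated from its principal transcripts and aligned globally with Biopython 1.88 (BLOSUM62, gap opening 10, extension 0.5, free end gaps). For the depth estimate, 255 bases were taken off the transcript length in each group.

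The members and the 10 pathway and 11 marker lists were chosen with earlier results of these data known. Some genes are in several lists, such as Igfbp3, Sost, Thbs4, Tnxb, Adipoq and Tgfb2, so the counts of different lists are not independent. Of each list the text names called genes (4 at most) and up to 3 uncalled genes of highest level; Yap1, Wwtr1, Tead1 and Lats1 were named after their values were seen. Where several IDs carry a symbol, the most expressed was used. The 5 genes of status HIDATA have no estimate and were left out. Genes tested by the authors numbered 15508.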

Additional observations from a re-analysis of the deposited data

How the results depend on the processing

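No paired analysis was possible because each group is 1 pooled value and no column carries a replicate number, so leaving out 1 library at a time was not run either. The number of CCN genes called was 1 as reported. It was 2 with q under 0.1, which adds Ccn2, and 0 when the intervals of the groups also had to be apart, which removes Ccn1. With q under 0.01, or with p adjusted again over genes with FPKM of at least 1 or of at least 10, it was 1, and the recomputed q of Ccn2 was 0.0745 and 0.0586. These settings reuse the authors' test. All 42 alternative folds of the 6 genes kept their sign, and the log2 fold of Ccn1 ran from 0.48 to 0.53. A pseudocount of 1 lowered the fold of Ccn3 from 0.39 to 0.26 and of Ccn6 from 0.36 to 0.10. Of 63 alternative list medians, 60 moved by less than 0.1 with the same sign. The CCN median fell to 0.26 with a pseudocount of 1, and rescaling to the same total, a shift of 0.04, turned the medians of the serum response factor list to 0.0071 and of the chondrocyte list to 0.0019. The spread between mice is not known for any gene, the depth is an estimate, and for Ccn2, Ccn4 and Ccn5 the fragment numbers are rougher.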
